A study of Mus musculus with 6 samples.

Results

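The genes described here are a set listed as identity markers of fibro-adipogenic progenitors, the interstitial mesenchymal cells of skeletal muscle. Of these, Tcf4 shares a protein name with a connective tissue marker that is the product of another gene, Tcf7l2. The set was defined by gene symbol, although earlier results of these data were known when it was chosen. It holds Pdgfra, Ly6a, Cd34, Dpp4, Pi16, Dpt, Thy1, Osr1, Prrx1 and Tcf4. All 10 were found among the 34745 genes of the deposited expression table. The RNA came from NOR-10, an established line of mouse skeletal muscle fibroblasts grown without the other cells of the muscle. The control group (n = 3 libraries) received PBS, and the D-gal group (n = 3 libraries) received D-galactose, a sugar used to induce senescence, at 20 mg/mL for 3 days. Both groups were the same line without any genetic change named in the labels, and the comparison asks how the progenitor markers of these fibroblasts stood with and without D-gal. The labels number the libraries within each group but do not say that they came from separate cultures, so p-values measure only the spread between these libraries, which may be technical.

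Fibro-adipogenic progenitors support muscle regeneration, and can also become matrix-producing fibroblasts or fat cells. The receptor PDGFRα and the surface antigen Sca-1, encoded by Pdgfra and Ly6a, are the usual pair for sorting them from muscle. Dpp4, Pi16 and Dpt are used as markers of fibroblasts in a less committed state, whereas Osr1 and Prrx1 encode transcription factors that mark limb and muscle connective tissue from development onwards. Because these are bulk libraries, fewer cells that express a marker and less RNA of it per cell cannot be told apart.

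Library totals were between 16876087 and 20830349 counts for control and between 13759108 and 15157064 for D-gal. Below, a normalized count is a count scaled to the mean effective library size, FPKM is the deposited level scaled to gene length and library total, and log2 fold changes are D-gal against control. Adjusted p-values come from the quasi-likelihood test of edgeR, by the Benjamini-Hochberg method over the 13407 genes tested. A gene is called higher or lower at an adjusted p-value under 0.05, and differentially expressed where its log2 fold change is also at least 1 in size. Control replicate 1 stood apart in immune markers, whose summed level was 81.6 CPM (counts scaled by the library total) there and 26.9 to 48.8 in the other libraries. Leaving that library out changed no call among the markers other than the one for Osr1.

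The fibroblasts carried most of these markers at high levels, but held little or nothing of Dpp4 and Pi16, the pair used to mark the least committed state. Dpp4 was at 0 in every library and Pi16 had at most 7 counts in any library, so both were below the filter on low counts. Of the other 8 markers, D-gal was associated with a higher level of Dpt alone, with lower levels of Ly6a, Thy1, Prrx1 and Osr1, and with no called change of Pdgfra, Cd34 and Tcf4. Over all genes tested, 16.9% were called higher and 17.8% lower, against 1 and 4 of the 8 markers, counts too small to be more than a description. The call of Osr1 was lost under 9 of 14 alternative settings of the fit, which leaves 3 lower. Dpt was also the sole marker differentially expressed at both thresholds, which 2.37% of all genes passed as higher and 1.83% as lower. Control and D-gal libraries did not overlap in normalized count for 6 of the 8, while 49.1% of all genes tested showed the same separation. The median log2 fold change of the 8 was −0.13, and that of all genes tested was 0.0036. Of the set's own name, the data thus held the broad mesenchymal markers and not Dpp4 or, beyond a few reads, Pi16.

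**Figure D1:**
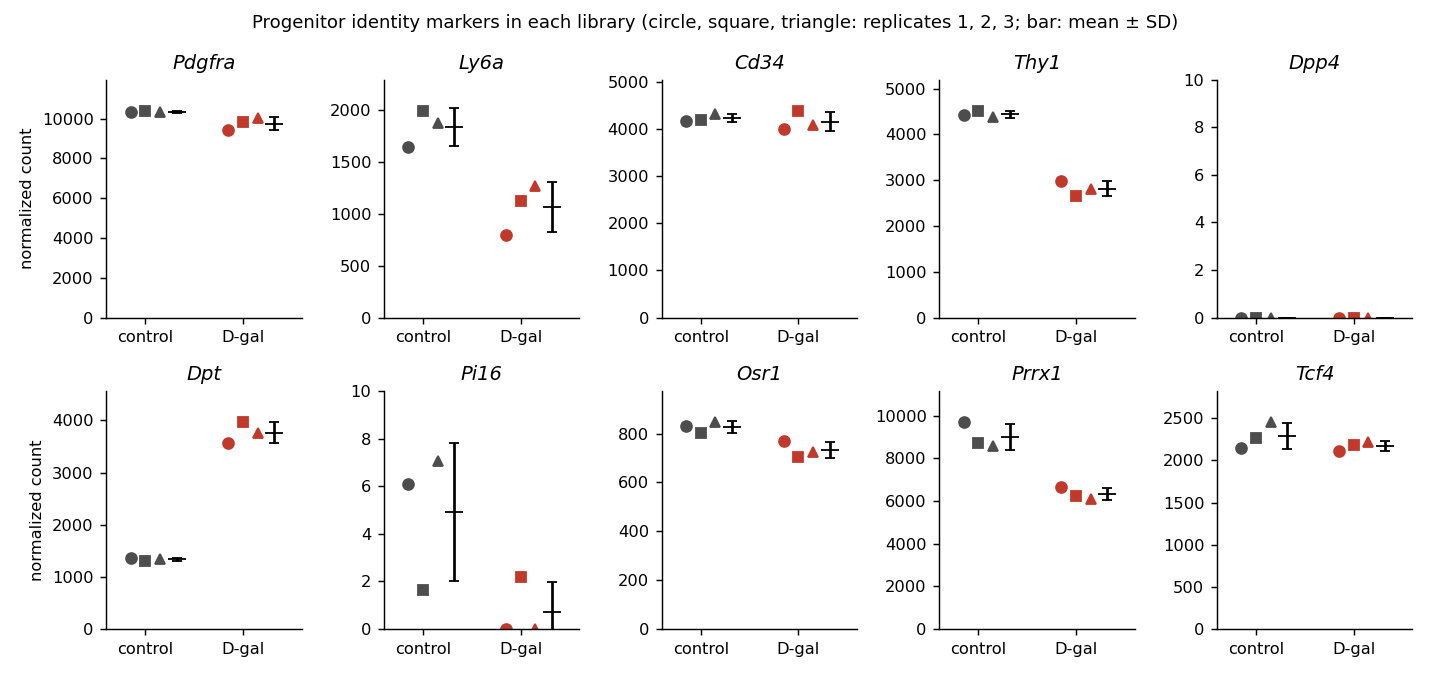
Normalized counts of the 10 markers (vertical axes, starting at 0) in 3 control and 3 D-gal libraries, with the mean ± SD of each group beside the points; for Pi16 the lower arm of the D-gal bar is cut at 0. Dpt rose from 1338 to 3762 on average, Thy1, Ly6a, Prrx1 and Osr1 were lower with D-gal, and Dpp4 lay at 0 in all libraries.

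Pdgfra encodes the receptor tyrosine kinase for platelet-derived growth factors and is the defining surface marker of the progenitors. It lies on chromosome 5 from 75152292 to 75198215 of GRCm38, on the plus strand (ENSMUSG00000029231). Its normalized counts were 10321, 10398 and 10311 in control replicates 1 to 3, and 9409, 9852 and 10009 in D-gal replicates 1 to 3. The D-gal values lay just below the control values without overlap, and the control libraries differed by very little (coefficient of variation 0.461%, against 3.19% with D-gal). In deposited FPKM the groups almost touched, with the lowest control library at 40.4 and the highest D-gal library at 40.3. The log2 fold change was −0.08 ± 0.03 (SE, n = 3 per group, 95% interval −0.16 to −0.01) and the adjusted p-value of 0.0679 with edgeR did not pass. As folds, that interval runs from 0.898 to 0.991. Its exons overlap the microRNA gene Mir7025 on the same strand, and Gm42802 and Gm42803 on the other strand, which had at most 6 counts in any library.

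Ly6a (Sca-1) encodes a small GPI-anchored antigen of stem and progenitor cells, on chromosome 15 from 74994877 to 74998031, minus strand (ENSMUSG00000075602). Normalized counts were 1641, 1994 and 1879 under PBS, against 795, 1127 and 1268 after D-gal. All D-gal values were below all control values, with D-gal replicate 1 the lowest, and the spread within the D-gal group was the widest of the tested markers (22.8% of the mean). Ly6a fell by 42.2%, a log2 fold change of −0.79 ± 0.15 (SE, n = 3 per group; edgeR adjusted p = 0.00555). Of its transcript words of 31 bases, 31.93% also occur in other genes, chiefly Ly6c1, Ly6i and Ly6c2, so the split of reads among these neighbours is uncertain. Ly6c1 itself had 1424, 1612 and 1151 counts under PBS, against 421, 622 and 482 after D-gal (log2 fold change −1.10 ± 0.12, edgeR adjusted p = 3.1e-04), while Ly6i had at most 13 counts and Ly6c2 had 0. Ly6a and Ly6c1, the well-counted genes among them, were both lower with D-gal.

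The sorting pair changed unequally. Within each library the ratio of Ly6a to Pdgfra in FPKM was 0.689, 0.831 and 0.790 under PBS, against 0.366, 0.496 and 0.549 after D-gal. The ratio was lower in every D-gal library than in any control library.

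Cd34 encodes a sialomucin of progenitor and vascular cells, on chromosome 1 from 194938819 to 194961279, plus strand (ENSMUSG00000016494). Normalized counts were 4169.6, 4192 and 4325 under PBS, against 3994, 4386 and 4085 after D-gal. The groups overlapped, and D-gal replicates held both the lowest and the highest value. The log2 fold change was −0.03 ± 0.04 (SE, n = 3 per group, edgeR adjusted p = 0.686), with a 95% interval from −0.12 to 0.07, and a two-sided exact permutation test gave p = 0.6. As folds, the interval is 0.919 to 1.05. Gm16897, which overlaps its exons on the other strand, had at most 5 counts.

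Thy1 encodes the GPI-anchored antigen CD90 of mesenchymal stromal cells, on chromosome 9 from 44043384 to 44048579, plus strand (ENSMUSG00000032011). It had 4421, 4515 and 4373 normalized counts under PBS, against 2982, 2657 and 2804 after D-gal. The groups were far apart compared with their spread (coefficients of variation 1.63% and 5.79%). Thy1 fell by 36.6% (log2 fold change −0.66 ± 0.05, n = 3 per group, 95% interval −0.76 to −0.55; edgeR adjusted p = 4.0e-05). Next to Ly6a this was the largest fall among the 8 tested markers.

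Dpt encodes dermatopontin, a small extracellular matrix protein that binds collagen fibrils and decorin, on chromosome 1 from 164796644 to 164824266, plus strand (ENSMUSG00000026574). Its normalized counts were 1361, 1309 and 1345 under PBS, against 3566, 3967 and 3753 after D-gal. Every D-gal library was far above every control library, and the means were 1338 ± 26.8 and 3762 ± 200.3 (SD). The increase was 2.81-fold (95% interval 2.61 to 3.03), a log2 fold change of 1.49 ± 0.05 (SE, n = 3 per group; edgeR adjusted p = 1.8e-06). Among all 13407 genes tested it ranked 7 by p-value and 137 by size of rise. Dpt has a single annotated transcript of 4 exons and 1724 bases, and none of its words of 31 bases occur in another annotated gene, a point on which it differs from Ly6a.

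Dpp4, a membrane peptidase also known as CD26, and Pi16, peptidase inhibitor 16 of the CAP protein family, together mark fibroblasts around vessels and in fascia. Dpp4 (chromosome 2, 62330073 to 62412231, minus strand, ENSMUSG00000035000) had 0 counts in all 6 libraries, which allows a level of up to 0.144 to 0.218 CPM depending on the library, at 3 counts as the limit of a count of 0. Pi16 (chromosome 17, 29318877 to 29329413, plus strand, ENSMUSG00000024011) had 7, 2 and 7 counts under PBS, against 0, 2 and 0 after D-gal. Control replicate 2 and D-gal replicate 2 held the same count, so the groups overlapped. With no filter on low counts, edgeR gave Pi16 an adjusted p-value of 0.178, and no change was detectable at this depth. These limits cover counting error only.

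Osr1 (odd-skipped related 1) encodes a zinc finger factor of embryonic and regenerating muscle connective tissue, on chromosome 12 from 9574442 to 9581499, plus strand (ENSMUSG00000048387). Normalized counts were 833, 801 and 847 under PBS, against 771, 706 and 725 after D-gal. The groups did not overlap, but the lowest control and the highest D-gal library were close. The log2 fold change was −0.17 ± 0.06 (SE, n = 3 per group, 95% interval −0.30 to −0.04), or −11.2%, with an edgeR adjusted p-value of 0.0449. This call was lost without any of the control libraries and without D-gal replicate 2 or 3, with an adjusted p-value of up to 0.135, and was called under 5 of 14 alternative settings of the fit (adjusted p 0.0361 to 0.135).

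Prrx1 encodes a paired-type homeodomain factor of limb mesenchyme, on chromosome 1 from 163245119 to 163313710, minus strand (ENSMUSG00000026586). It had 9699, 8709 and 8579 normalized counts under PBS, against 6647, 6245 and 6114 after D-gal. The highest D-gal value was well below the lowest control value. Prrx1 fell by 29.6% (log2 fold change −0.51 ± 0.05, n = 3 per group, 95% interval −0.63 to −0.38; edgeR adjusted p = 2.9e-04). Its paralog Prrx2, the other member of this homeobox family, had a log2 fold change of −0.07 ± 0.05 (adjusted p = 0.272 with edgeR).

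For the exact permutation test over libraries, Pdgfra, Ly6a, Dpt, Thy1, Osr1 and Prrx1 each gave p = 0.1, the smallest that 3 against 3 libraries allow, so this test cannot pass 0.05. The other tested markers gave 0.6 for Cd34 and 0.3 for Tcf4.

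Sequences before the RefSeq transcription start are shown for Dpt and Prrx1, the called markers with a RefSeq window, which moved in opposite directions. The undetected Dpp4 is shown as well. Each run is the 250 bases before the RefSeq start (GRCm38.p6), written in the direction of the gene, from chr1:164796413-164796662 on the plus strand for Dpt, chr1:163313651-163313900 on the minus strand for Prrx1 and chr2:62412232-62412481 on the minus strand for Dpp4. Capitals mark letters that match a searched motif other than the E-box. By the gene coordinates given above, Dpt begins at 164796644 and Prrx1, on the minus strand, at 163313710. The end of each of these windows nearest the RefSeq start therefore lies inside the gene. For Dpt that end holds the E-boxes at 18 and 7 bases before the RefSeq start.
Dpt: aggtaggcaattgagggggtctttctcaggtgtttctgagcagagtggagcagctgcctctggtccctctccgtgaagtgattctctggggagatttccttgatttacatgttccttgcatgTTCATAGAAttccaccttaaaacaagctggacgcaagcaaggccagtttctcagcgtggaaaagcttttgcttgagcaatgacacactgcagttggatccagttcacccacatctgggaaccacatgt
Prrx1: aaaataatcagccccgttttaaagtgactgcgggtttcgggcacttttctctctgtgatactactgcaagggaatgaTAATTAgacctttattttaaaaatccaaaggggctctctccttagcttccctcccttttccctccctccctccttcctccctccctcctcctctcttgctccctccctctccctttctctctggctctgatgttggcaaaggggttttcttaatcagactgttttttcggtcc
Dpp4: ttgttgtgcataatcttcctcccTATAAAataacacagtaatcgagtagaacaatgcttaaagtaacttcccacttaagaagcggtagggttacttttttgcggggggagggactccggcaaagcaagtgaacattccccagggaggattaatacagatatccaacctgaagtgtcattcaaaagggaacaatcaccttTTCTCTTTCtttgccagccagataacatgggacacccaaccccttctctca
The 8 motifs, searched on both strands, were the TATA box TATAAA, the CCAAT box, the GC box GGGCGG, the gamma-activated site TTCNNNGAA, the interferon-stimulated element GAAANNGAA, the AP-1 site TGANTCA, the E-box CANNTG and the homeodomain site TAATTA. Windows were found for 6 of the 10 markers. The Dpt window held TTCATAGAA, a gamma-activated site, 128 bases before the start, a motif present in 7.02% of all 32851 windows, and 6 E-boxes, a motif present in 66.2%. The Prrx1 window held TAATTA 173 bases before the start, present in 4.84% of windows. In the Dpp4 window a TATAAA lay 227 bases before the start (12.4% of windows) and TTCTCTTTC, an interferon-stimulated element on the other strand, lay at 51 bases (7.13%), with an E-box at 126 bases between them. Pi16 had CCAAT at 64 bases (33.8%), Pdgfra had only an E-box at 182 bases, and Cd34 had none of the 8. None of these matches overlapped another. The G and C content of the windows was 48.8% for Dpt, 47.6% for Prrx1 and 43.6% for Dpp4, against a median of 52.4% over all windows. These matches describe letters, and binding was not measured here.

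**Figure D2:**
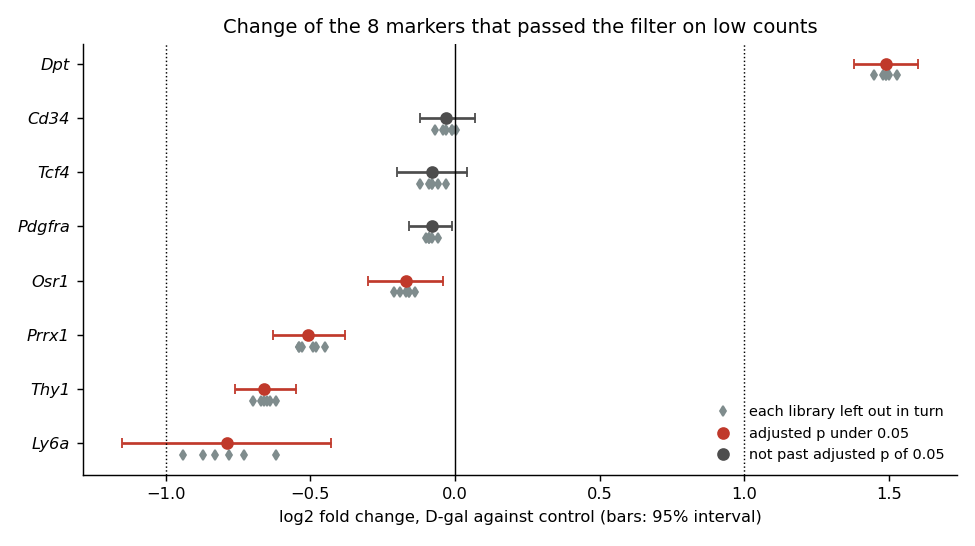
Log2 fold change of the 8 tested markers, D-gal against control (horizontal axis), with the 95% interval as bars, red for an adjusted p-value under 0.05, grey diamonds for the fits without each library, and dotted lines at a change of 1 in size. Dpt lies at 1.49 and beyond the line in every fit, while Ly6a, Thy1, Prrx1 and Osr1 lie between −0.79 and −0.17.

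Levels were compared between genes per length only. In deposited FPKM, the control order was Thy1 (150.4 ± 2.61), Dpt (45.7 ± 0.949), Pdgfra (40.6 ± 0.226), Prrx1 (33.1 ± 2.33), Ly6a (31.3 ± 3.02), Cd34 (25.3 ± 0.442), Osr1 (24.2 ± 0.670), Tcf4 (2.66 ± 0.172), Pi16 (0.0389 ± 0.0228) and Dpp4 at 0 (mean ± SD, n = 3). Prrx1 and Ly6a overlapped and the other neighbours did not. Thy1 stood above 98.4% of the genes tested in control FPKM, the markers from Dpt to Osr1 stood above 93.2% to 85.5%, and Tcf4 above 35.5%. In the D-gal group Dpt was first at 131 ± 7.45 FPKM, Thy1 second at 97.7 ± 5.31 and Pdgfra next at 39.3 ± 1.38. Cd34 (25.5 ± 1.34), Prrx1 (23.9 ± 0.972), Osr1 (22.0 ± 0.914), Ly6a (18.6 ± 4.29), Tcf4 (2.58 ± 0.0744) and Pi16 (0.00589 ± 0.0102) followed, of which Cd34 overlapped with Prrx1 and Osr1 with Ly6a.

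The order depended on the gene length that was used. No gene length was read from the deposit, and the length behind the FPKM was derived from counts, FPKM and library totals (median over libraries). For Ly6a this implied length was 3452 bases, against 1205 bases of distinct exon sequence in GENCODE M21. For Thy1 it was 1735 against 2995. In CPM per kilobase of distinct exon sequence, Ly6a (89.7 ± 8.66) and Thy1 (87.1 ± 1.51) led the control group and overlapped, followed by Pdgfra (60.7 ± 0.338), Prrx1 (47.8 ± 3.37), Dpt (45.7 ± 0.949), Cd34 (34.1 ± 0.596), Osr1 (23.6 ± 0.652) and Tcf4 (4.92 ± 0.319). Prrx1 and Dpt also overlapped on this scale. In the D-gal group Dpt was first on both scales, at 131 ± 7.45 per kilobase, ahead of Pdgfra (58.6 ± 2.05), Thy1 (56.6 ± 3.08) and Ly6a (53.2 ± 12.3), of which Pdgfra overlapped with Thy1 and Thy1 with Ly6a. The ratio of Dpt to Thy1 within a library was 0.535, 0.504 and 0.534 under PBS, against 2.08, 2.59 and 2.33 after D-gal, so Thy1 was the higher of the pair in every control library and Dpt in every D-gal library.

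**Figure D3:**
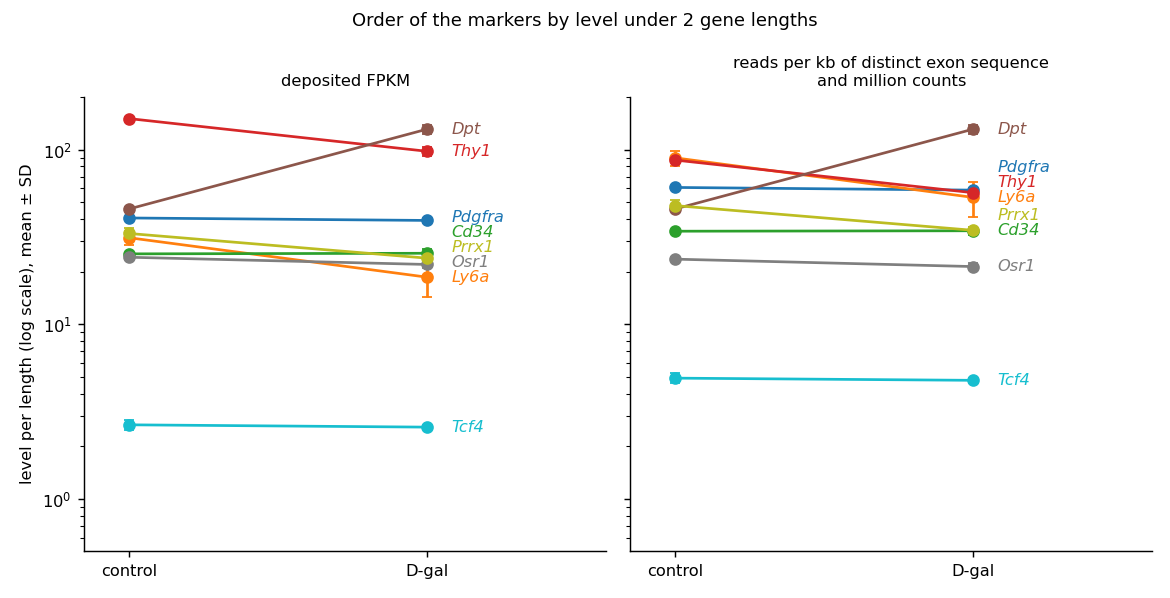
Level per length of 8 markers (log axis, mean ± SD of 3 libraries) in control and D-gal, as deposited FPKM on the left and per kilobase of distinct exon sequence on the right; Dpp4 and Pi16 are too low to be drawn. On both scales the line of Dpt rises from 45.7 to 131 and crosses that of Thy1.

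Tcf4 encodes the E protein E2-2, a broadly expressed basic helix-loop-helix factor, and lies on chromosome 18 from 69343356 to 69689079, plus strand (ENSMUSG00000053477). The connective tissue marker that antibodies to TCF-4 detect in muscle is, as background, the product of another gene, Tcf7l2. Tcf4 had 2149.7, 2267 and 2455 normalized counts under PBS, against 2109.8, 2181 and 2221 after D-gal. The groups overlapped, and the log2 fold change was −0.08 ± 0.05 (SE, n = 3 per group, 95% interval −0.20 to 0.04; edgeR adjusted p = 0.297). Among the tested markers its level per length was the lowest on both scales. The length implied by its FPKM was 50628 bases, and its distinct exon sequence was 27382 bases. Tcf7l2 had 1260, 1335 and 834 counts under PBS, against 862, 848 and 599 after D-gal, with a log2 fold change of −0.21 ± 0.13 (edgeR adjusted p = 0.258). Neither gene was called, under either meaning of the name.

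Among the paralogs of the 10 markers, 13 of 24 could be tested, of which 3 were higher and 4 lower (median log2 fold change −0.13). For this and each later list, the shares over all genes tested were 16.9% higher and 17.8% lower. Counts in lists this small are a description only. Pdgfrb, which encodes the β receptor for platelet-derived growth factors, was higher at 0.19 ± 0.03 on the log2 scale (edgeR adjusted p = 0.00267), beside the uncalled −0.08 of Pdgfra. Crispld2, which encodes a secreted protein of the family of Pi16, was higher at 1.73 ± 0.19 (edgeR adjusted p = 3.6e-04), from 54, 34 and 35 counts to 104, 115 and 103. Podxl, which encodes a sialomucin related to CD34, was lower at −2.18 ± 0.27 (edgeR adjusted p = 6.3e-04), from 67, 48 and 43 counts to 8, 10 and 9. Of the Dpp4 relatives, Fap had at most 5 counts in a library, and Dpp8 and Dpp9, which encode intracellular peptidases, had log2 fold changes of −0.14 and 0.00 (adjusted p 0.0769 and 0.996 with edgeR).

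In the list of platelet-derived growth factor signalling, 19 of 20 genes were tested, 5 were higher and 4 lower, with a median log2 fold change of 0.12. Pdgfd, which encodes a ligand of the β receptor, was higher (0.90 ± 0.08, edgeR adjusted p = 1.2e-04) and Pdgfc, which encodes a ligand of the α receptor, was lower (−0.88 ± 0.10, edgeR adjusted p = 3.8e-04). Pik3r1, the regulatory subunit of PI3-kinase, was lower at −0.48 ± 0.04 (edgeR adjusted p = 5.3e-05).

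The other genes of the less committed state, 21 of 24 tested, included 3 higher and 10 lower, with a median log2 fold change of −0.46. Fn1, which encodes fibronectin and had the highest FPKM of the list, was lower at −1.27 ± 0.04 (edgeR adjusted p = 1.8e-06), and Cd248, the surface antigen endosialin, at −1.18 ± 0.07 (edgeR adjusted p = 1.5e-05). In the list of parenchymal fibroblast genes, 17 of 20 tested, 1 was higher and 9 were lower (median −0.36). There Cxcl12, a chemokine, was lower at −0.78 ± 0.06 and Sparcl1, a matricellular protein, at −0.94 ± 0.10 (edgeR adjusted p = 6.4e-05 and 3.2e-04), whereas Gsn, the actin-binding gelsolin, was at −0.02 ± 0.03 (adjusted p = 0.679). Dpt therefore went the opposite way to most called genes of both lists.

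Of the other transcription factors of connective tissue, 19 of 24 were tested, 1 was higher and 4 were lower (median −0.07). Klf4 (−0.93 ± 0.05, edgeR adjusted p = 1.1e-05) and Nr2f2 (−0.62 ± 0.04, edgeR adjusted p = 4.4e-05) were lower, as was Prrx1, and Hoxc10 was at 0.17 ± 0.06 (adjusted p = 0.0510). Of other stromal surface antigens, 16 of 20 were tested, with 3 higher and 3 lower (median −0.03). Over all genes tested, 16.9% were higher and 17.8% lower. Vcam1, an adhesion molecule, was lower at −0.67 ± 0.04 (edgeR adjusted p = 2.4e-05), Alcam, another adhesion molecule, was higher at 1.22 ± 0.15 (edgeR adjusted p = 5.1e-04), and the integrin gene Itgb1 was at 0.03 ± 0.04 (adjusted p = 0.603).

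Of general fibroblast genes, 18 of 20 were tested, 14 were lower and 2 higher (median −0.37), beside 17.8% lower and 16.9% higher over all genes tested. Col3a1 (−1.18 ± 0.05, edgeR adjusted p = 3.9e-06) and Col1a2 (−0.97 ± 0.04, edgeR adjusted p = 4.8e-06) were lower, and S100a4 was at −0.04 ± 0.21 (adjusted p = 0.894). Of myofibroblast markers, 11 of 12 tested, 6 were higher and 1 lower (median 0.19), with Acta2 at 0.46 ± 0.04 and Cnn1 at 0.71 ± 0.07 (edgeR adjusted p = 1.2e-04 and 1.5e-04). None of the 6 was differentially expressed. The lower gene, Lrrc15, was, at −1.01 ± 0.32 (edgeR adjusted p = 0.0410), with at most 29 counts in a library.

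**Figure D4:**
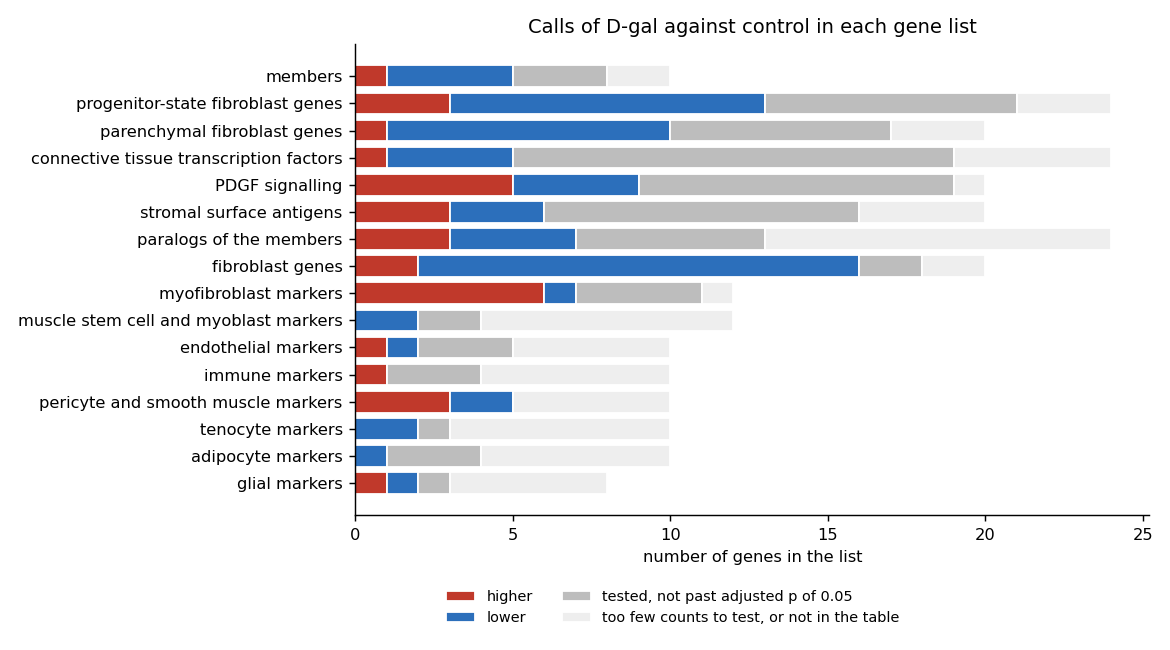
Number of genes in each list (horizontal axis) that were called higher (red), lower (blue), not called (grey) or not tested (light grey) with D-gal. The 10 markers hold 1 higher and 4 lower, the general fibroblast genes 2 higher and 14 lower, and the myofibroblast markers 6 higher and 1 lower. Over all genes tested, 16.9% were higher and 17.8% lower.

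Several of the 10 markers are also expressed outside fibroblasts, so markers of other cell types were read beside them. The shares over all genes tested, 16.9% higher and 17.8% lower, stand beside each count. The muscle stem cell genes Pax7, Myf5 and Myod1 and the fat cell genes Adipoq, Cidec and Lep were at 0 in every library. Other genes of these lists were counted. Per library, Ncam1 had 453 to 1055 counts and Itga7 32 to 49, while Pparg had 195 to 321 and Fabp4 16 to 32. None of these was called. In muscle stem cell and myoblast markers, 4 of 12 tested, 0 were higher and 2 lower (median log2 fold change −0.27), and their summed level was 118 to 132 CPM in control and 101 to 112 in D-gal libraries. The called genes were Cdon, a surface receptor, at −0.26 ± 0.04 and Des, the filament protein desmin, at −0.78 ± 0.17 (edgeR adjusted p = 0.00259 and 0.00898). Endothelial markers, which matter for Cd34 and Ly6a, had 5 of 10 tested, 1 higher and 1 lower (median log2 fold change −0.28), with sums of 8.50 to 9.54 and 7.48 to 9.43 and Cldn5 at 0. Vwf was higher at 1.66 ± 0.41 and Tek lower at −1.02 ± 0.30 (edgeR adjusted p = 0.0161 and 0.0342), each with at most 45 counts in a library, and Egfl7 was at −0.28 ± 0.17 (adjusted p = 0.231). Immune markers had 4 of 10 tested, 1 higher and 0 lower (median log2 fold change −1.03), with sums of 26.9 to 81.6 and 43.2 to 48.8 and Cd3e at 0. Cd14 was higher at 0.62 ± 0.18 (edgeR adjusted p = 0.0329), and Lyz2 was at −1.95 ± 0.74 (adjusted p = 0.0751). In control replicate 1, the highest in immune markers, Lyz2 had 627 counts, against 46 to 114 elsewhere.

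Pericyte and smooth muscle markers had 5 of 10 tested, 3 higher and 2 lower (median log2 fold change 0.43), with sums of 70.8 to 71.8 CPM in control and 88.7 to 101 in D-gal libraries, with Higd1b at 0. Rgs5 was lower at −1.06 ± 0.10 and Notch3 higher at 0.59 ± 0.07 (edgeR adjusted p = 1.4e-04 and 4.1e-04). Tenocyte markers had 3 of 10 tested, 0 higher and 2 lower (median −0.77, sums 379 to 390.0 and 232 to 243, mostly Egr1), with Thbs4, Kera and Chad at 0. Egr1, an early response transcription factor, was lower at −0.77 ± 0.03 and Fmod, the matrix protein fibromodulin, at −1.38 ± 0.10 (edgeR adjusted p = 6.2e-06 and 5.1e-05). Adipocyte markers had 4 of 10 tested, 0 higher and 1 lower (median −0.25, sums 125 to 132 and 98.4 to 104, mostly Lpl). Lpl, lipoprotein lipase, was lower at −0.45 ± 0.06 (edgeR adjusted p = 6.4e-04), and Cebpa was at −0.44 ± 0.22 (adjusted p = 0.153). Glial markers had 3 of 8 tested, 1 higher and 1 lower (median 0.60, sums 75.6 to 85.7 and 31.7 to 38.3, mostly Pmp22), with Cdh19 at 0. The myelin protein genes Pmp22 and Mbp were lower at −1.50 ± 0.12 and higher at 0.93 ± 0.27, respectively (edgeR adjusted p = 7.8e-05 and 0.0291). The part of these lists in the changes of Dpt, Thy1, Ly6a and Prrx1 was not tested.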

How the data were processed

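RNA-seq libraries of NOR-10 cells, 3 control and 3 D-gal, were analysed, with groups and replicate numbers from the labels and dose and time from the study's methods. The authors deposited a whole-number count of reads per gene and library, without normalization, and FPKM values that the authors computed from the same counts by gene length and library total. By the study's methods, reads were checked with FastQC (version 0.11.9) and trimmed with Trimmomatic (version 0.39). By the submitters' processing notes, they were aligned with HISAT2 (version 2.0.4). The counting tool, its strand setting and the annotation release are not given in the sources used here, so reads of genes overlapping on opposite strands could not be separated.

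Counts were fitted with edgeR (version 4.0.16, R 4.3.3; TMM, filterByExpr, quasi-likelihood test, Benjamini-Hochberg adjustment over 13407 genes), without covariates. Normalization factors were 0.9855 to 1.015. The biological coefficient of variation was 9.47%. Replicate pairs gave chi-square values of 5.998 to 9.417 for each degree of freedom over genes with at least 20 counts, above sampling noise, so none was a duplicate. Single genes were also tested by a two-sided exact permutation test on log2(normalized count + 0.5). Coordinates are the table's (GRCm38). Of its genes, 34344 are in GENCODE M21, 27763 with the same coordinates, which Pi16 and Osr1 do not share. Functions were tested on simulated counts.

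The markers, lists and tests were chosen with earlier results of these data known, and the lists were written from general knowledge, with some genes in several lists. Genes named were the 10 markers, Tcf7l2, the gene of each list with the highest control FPKM and the 2 with the smallest p, the defining markers of other cell types, and paralogs set beside a marker. Pdgfc, Alcam, Podxl, Lrrc15, Ncam1, Itga7, Pparg and Fabp4 were added after their values were seen. The alternatives were DESeq2 (version 1.42.0), RLE factors, no filter, at least 10 counts in every library, a replicate block, each library left out, limma (version 3.58.1) on log2(FPKM + 1) or log2(FPKM + 0.1), counts thinned to the smallest library (seed 7) and the other gene length.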

Additional observations from a re-analysis of the deposited data

How the results depend on the processing

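Dpt, Thy1, Ly6a and Prrx1 kept their direction and their call under all 14 alternatives of the fit, with log2 fold changes of 1.45 to 1.53, −0.70 to −0.62, −0.94 to −0.62 and −0.54 to −0.45. Pdgfra, Cd34 and Tcf4 were called under none of the 14 (lowest adjusted p 0.0593, 0.230 and 0.119). The log2 fold change of Cd34 changed sign to 0.01 with limma on log2(FPKM + 1) and to 0.01 on log2(FPKM + 0.1), and ranged from −0.07 to 0.0024 with each library left out, and the cause was not tested. Osr1 lost its call under 9 of the 14, and the number of markers called lower was then 3 instead of 4. Among all genes, 564 were differentially expressed, and 120 with limma on log2(FPKM + 1), where the pseudocount lowers the fold of weakly expressed genes. With the replicate block, 530 genes were differentially expressed and Osr1 had an adjusted p of 0.0661. Same-numbered libraries deviated together by correlations of only −0.011, −0.003 and 0.028, and not every library correlated best with its own number. These values gave no sign of pairing, but they cannot show whether same-numbered libraries were handled together. Depth limits Dpp4, with no counts, and Pi16, which the filter on low counts left out and which was tested only without it.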
